A study of Mus musculus with 24 samples.

Results

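The transcripts of Sox7, Sox17 and Sox18, the SoxF factors, were followed through 24 mouse RNA sequencing libraries. The members are the 3 genes of this subfamily, taken by name from 22282 genes in the processed values. The cells formed 8 groups of 3 libraries each. For MACs the study describes replicates as cultures isolated independently. For adult endothelial cells (ECs) the figure legends of the study speak of individual isolates. The sources used here do not say what separates these isolates, so p-values there measure the spread between these libraries, part of which may be technical. MACs are mouse amniotic cells from C57BL/6J embryos of mid-gestation, pooled without regard to sex. Before conversion the study grew them in the culture medium AmnioMAX. The medium of the sequenced MACs is not given in the sources used here. RACVECs are MACs that received lentiviruses with the mouse Ets factors Etv2, Erg and Fli1, each under a PGK promoter, and were then grown in endothelial medium with VEGF-A and an inhibitor of TGF-β signalling. Akt-RACVECs carry in addition a myristoylated, constitutively active Akt, and Akt-MACs carry that Akt without the Ets factors. Sox17-RACVECs are RACVECs given a lentivirus with mouse Sox17 and selected with puromycin, so their Sox17 is the sum of the transgene and the resident gene. Akt-LECs and Akt-liver ECs are adult lung and liver endothelial cells that were cultured with the same active Akt, whereas LSECs are liver ECs sorted directly from the mouse on labelled VE-cadherin and isolectin, with no culture and no transgene. Every cultured EC group therefore carries Akt, and no adult EC cultured without it was among the groups.

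SoxF factors are transcription factors with a high mobility group box that bends DNA, and their other end carries a domain that activates transcription and touches β-catenin. They are known as partly redundant regulators of blood and lymph vessel development: Sox18 is needed for the induction of Prox1 in lymphatic precursors, Sox17 for arterial identity together with Notch and Wnt signalling, and Sox7 for vascular sprouting and remodelling. Sox17 is also a classical gene of the definitive endoderm. The study asked what active Akt adds to cells converted by Ets factors. Sox motifs in regions bound by Fli1 led it to the Sox family, and it chose Sox17 by PCR with and without Akt, with a protein blot. It also lists Sox17 among the genes raised in Akt-RACVECs in its RNA sequencing. Whether the PCR used the isolates sequenced here is not given in the sources used here. For both reasons the contrast of Sox17 between Akt-RACVECs and RACVECs is not read as independent evidence of that pattern.

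All values are FPKM, fragments per kilobase of transcript scaled to the library, so that levels of different genes can be set side by side per length. Each factor has 1 row in the deposited values, NM_011446 for Sox7, NM_011441 for Sox17 and NM_009236 for Sox18, and summing rows by symbol changed nothing. In the mm9 build Sox17 lies on the minus strand of chromosome 1 from 4481009 to 4486494, Sox18 on the minus strand of chromosome 2 from 181404541 to 181406345, and Sox7 on the plus strand of chromosome 14 from 64562511 to 64569569. The GENCODE annotation gives Sox7 and Sox18 each 1 transcript of 2 exons, with 1140 coding bases of 3298 for Sox7 and 1131 of 1620 for Sox18. Sox17 has 2 annotated transcripts of 5 and 4 exons, both with 1257 coding bases, in 3130 and 1512 bases. No other annotated gene overlaps any of these loci. Whether the Sox17 lentivirus carried untranslated sequence is not given in the sources used here, and FPKM divides by the whole transcript.

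The summed FPKM was between 1689486 and 2317294 per library, with 12356 to 14985 genes above 0. Numbers of reads were not used here, so the depth is unknown and a gene at 0 may lie under a limit that these values do not give. The 10 endothelial markers, among them Cdh5 (VE-cadherin) and Pecam1 (CD31), summed to between 26.1 and 132 FPKM in MACs, between 42.4 and 95.4 in Akt-MACs, and between 2018 and 22277 in the libraries of the other groups. The library labelled Sox17-RACVEC 2 listed Etv2 at 0, where libraries 1 and 3 of that group had 458 and 378 FPKM and every RACVEC and Akt-RACVEC library at least 127. It had 387 FPKM of Erg where they had 4.49 and 0. Erg was also low in RACVECs (0.900 to 13.8 FPKM), so Erg alone did not follow the labels. Across 14964 genes its profile had a Pearson correlation of 0.962 with the mean of Akt-RACVECs and 0.879 with the mean of the other two Sox17-RACVEC libraries. By that measure 14 of the 24 libraries were closest to the mean of their own group, itself left out, and 10 to another group. Closeness to another group was thus not particular to this library, but its gap between the closest group and its own was the widest. For Akt-MAC 1, the next widest, the correlations were 0.921 with MACs and 0.871 with its own group. Sox17-RACVEC 2 also had the highest Akt1 of the 24 libraries, 1323 FPKM. Because of its Etv2, means, tests and list counts of Sox17-RACVECs are given with and without it. Among RACVECs, the header of library 3 names a sort and a culture day that the other headers do not.

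Sox18 was the most abundant SoxF transcript in every library that carried Ets factors or came from adult endothelium. In MACs it was at 0, 0 and 1.18 FPKM and in Akt-MACs at 0 in all 3 libraries. RACVECs had 289.7, 1175 and 329.8 FPKM, and Akt-RACVECs 736.5, 1701 and 675.5 FPKM. Both amniotic groups without Ets factors thus lay far below both groups with them. Sox17-RACVECs had 1893, 796 and 1405 FPKM. Akt-LECs had 395, 2218 and 725 FPKM, Akt-liver ECs 316, 1809 and 1853 FPKM, and LSECs 395, 496 and 489 FPKM. The libraries of cultured groups were spread widely, while those of LSECs lay close together. By group mean the order ran from Sox17-RACVECs (1364 ± 549 FPKM, SD, n = 3) through Akt-liver ECs (1326 ± 875), Akt-LECs (1113 ± 971), Akt-RACVECs (1038 ± 576), RACVECs (598 ± 500) and LSECs (460 ± 56.8) to MACs (0.393 ± 0.681) and Akt-MACs. Without library 2 the Sox17-RACVEC mean was 1649 ± 345 FPKM (SD, n = 2), still first. Neighbours in the order of all libraries overlapped, except LSECs and MACs, which were apart with an exact two-sided permutation p of 0.1, the smallest that 3 against 3 allows.

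Sox7 was the one factor of the family that MACs already held at a measurable level, though not in every library. MACs had 35.2, 0 and 27.8 FPKM and Akt-MACs 2.27, 9.77 and 22.2 FPKM. RACVECs had 169.8, 284 and 246 FPKM, Akt-RACVECs 448, 322 and 226 FPKM, and Sox17-RACVECs 309, 438 and 224 FPKM. These 9 libraries were all above the 6 libraries of MACs and Akt-MACs. Akt-LECs had 127, 221 and 367 FPKM, Akt-liver ECs 157, 402 and 121 FPKM, and LSECs 68.9, 88.2 and 76.8 FPKM. The group means fell from 332 ± 111 in Akt-RACVECs over 324 ± 108 in Sox17-RACVECs, 238 ± 121 in Akt-LECs, 233 ± 58.2 in RACVECs and 227 ± 153 in Akt-liver ECs to 78.0 ± 9.67 in LSECs, 21 ± 18.6 in MACs and 11.4 ± 10.1 in Akt-MACs. Without library 2 Sox17-RACVECs had a mean of 267 ± 60.2 (n = 2) and stayed second. The first 5 groups overlapped with their neighbours. LSECs stood apart from Akt-liver ECs above and from MACs below, each with an exact permutation p of 0.1.

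Sox17 had a pattern of its own among the SoxF factors. It was listed at 0 in all 3 MAC and all 3 RACVEC libraries, and Akt-MACs had 0, 1.53 and 0 FPKM. Akt-RACVECs had 12, 83.5 and 82.2 FPKM. No Akt-RACVEC library overlapped with RACVECs, and library 1 was well below the other two. The libraries labelled as carrying the Sox17 transgene had 5.09, 40.1 and 200.1 FPKM, with an SD of 127% of the mean. The lowest of them lay under every Akt-RACVEC and Akt-LEC library. Akt-LECs had 24.5, 42.2 and 64.0 FPKM, Akt-liver ECs 82.8, 1.49 and 5.61 FPKM, and LSECs 81.2, 116 and 79.3 FPKM. Akt-liver EC 1 lay within the range of LSECs, whereas libraries 2 and 3 lay below every LSEC and Akt-LEC library. By mean the order was LSECs (92.0 ± 20.5 FPKM), Sox17-RACVECs (81.8 ± 104), Akt-RACVECs (59.2 ± 40.9), Akt-LECs (43.6 ± 19.8), Akt-liver ECs (30.0 ± 45.8) and Akt-MACs (0.510 ± 0.883), then MACs and RACVECs at 0. Without library 2 the Sox17-RACVEC mean was 103 ± 138 (n = 2) and moved to the first place. No neighbours in the order of all libraries were apart in their libraries.

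**Figure D1:**
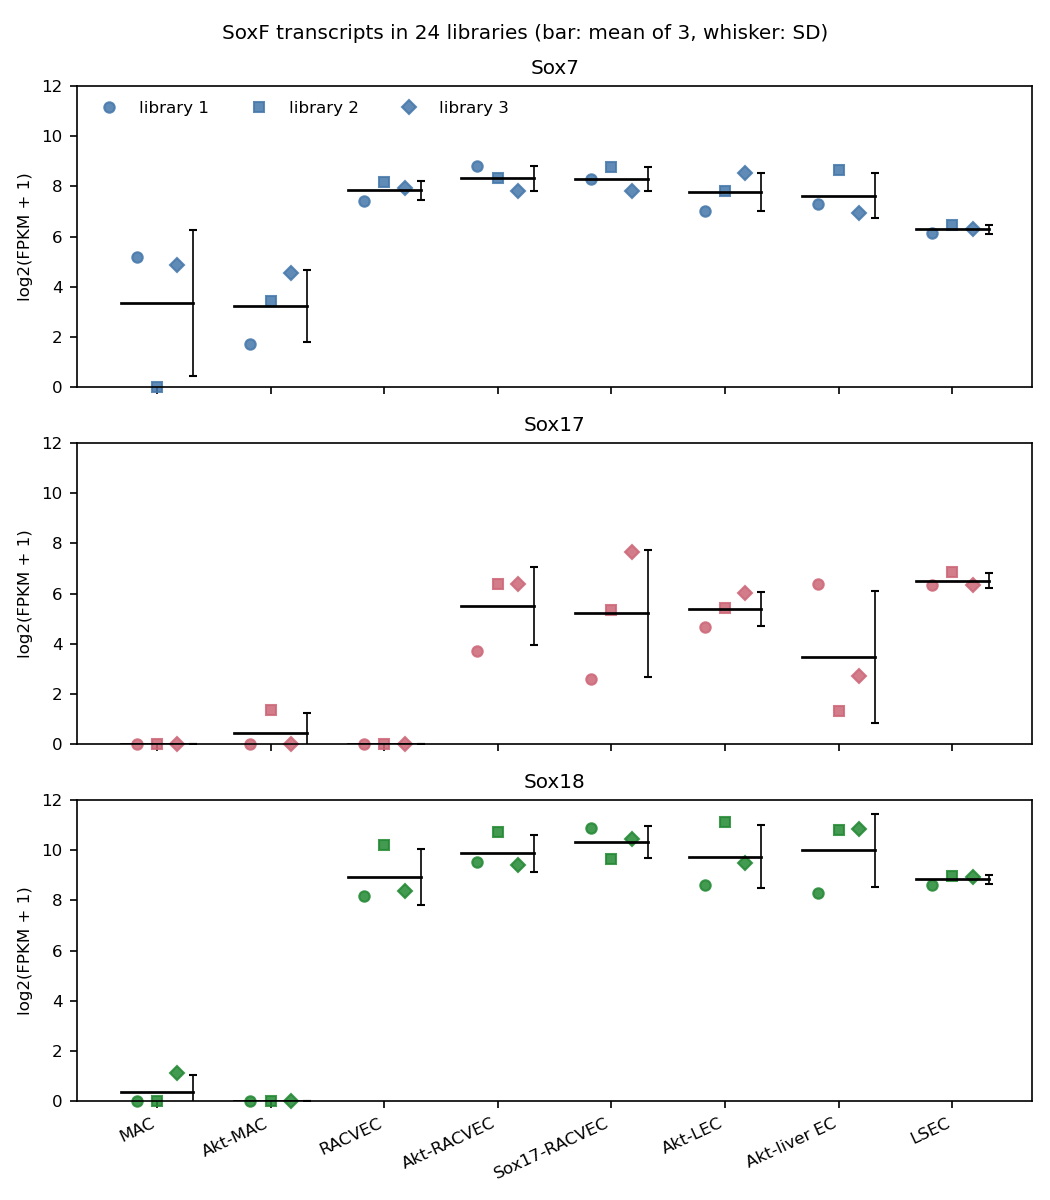
Levels of Sox7, Sox17 and Sox18 as log2(FPKM + 1) in each of the 24 libraries by group, with the mean of 3 libraries as a bar and the SD as a whisker. Sox18 is near the floor in MACs and Akt-MACs and high elsewhere. Sox17 is at the floor in MACs and RACVECs and spreads widely in Sox17-RACVECs and Akt-liver ECs. Sox7 has the highest mean of the 3 factors in MACs and Akt-MACs and the lowest in LSECs, and lies between in the other groups.

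Conversion by the Ets factors was followed first. RACVECs and MACs may also differ in medium and time in culture, which cannot be told apart from the Ets factors here. Sox18 and Sox7 rose from MACs to RACVECs, and Sox17 stayed listed at 0 in both. Differences between groups were tested on log2(FPKM + 1) with limma, 1 model over all 24 libraries, and a gene was called at a Benjamini-Hochberg adjusted p below 0.05 over 14964 genes and a log2 difference past 1 or -1. Sox18 was higher by 8.54 ± 0.68 (SE) with a 95% interval of 7.11 to 9.97 and an adjusted p of 8.79e-07, and all RACVEC libraries were above all MAC libraries. Since MACs were close to 0, this size depends on the pseudocount. The call was lost under the study's criterion, an unadjusted test on FPKM with unequal variances. Sox7 was higher by 4.50 ± 0.95 with a 95% interval of 2.50 to 6.50 and an adjusted p of 0.0134. The Sox7 call was lost without RACVEC 2, where the difference was 4.34 and the adjusted p 0.0614, and in a fit of RACVECs and MACs alone, where the adjusted p was 0.263. Leaving out MAC 2, the library at 0, lowered the difference to 2.83. In this comparison 1.36% of all genes were called higher and 1.35% lower, against 2 of the 3 SoxF factors called higher. The mesenchymal list, with Col1a1 and Acta2, summed to 3149 to 8622 FPKM in MACs and 2582 to 6376 in RACVECs, with all 8 genes at a mean of at least 1 FPKM in both. In such bulk samples fewer cells of a type and less RNA per cell cannot be told apart.

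The same comparison on the Akt background, Akt-RACVECs against Akt-MACs, had all 3 factors higher. Sox7 rose by 5.10 ± 0.95 (adjusted p = 0.00146) and Sox17 by 5.05 ± 1.12 (adjusted p = 0.00425). Sox18 was listed at 0 in Akt-MACs, so no fold is given, and its adjusted p was 4.47e-08. All Akt-RACVEC libraries were above all Akt-MAC libraries for each factor, though the share of all genes apart in this way is not given here. Under the study's criterion the calls of Sox17 and Sox18 were lost and that of Sox7 was not. Here 6.15% of genes were called higher and 13.4% lower, so that a call was more frequent over all genes as well. The macrophage list summed to 880 to 41205 FPKM in Akt-MACs, led by Lyz2, and to 5.35 to 160 in Akt-RACVECs. In Akt-MACs 6 of its 7 measured genes had a mean of at least 1 FPKM and Clec4f was at 0, against 5 of 7 in Akt-RACVECs. The part of such transcripts in these differences was not tested.

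Active Akt on top of the Ets factors was compared next. Among the SoxF factors Sox17 passed the test and rose from 0 in each RACVEC library to a mean of 59.2 FPKM in Akt-RACVECs, with an adjusted p of 0.0423 that lies close to the threshold. The call was lost without any 1 of the 3 RACVEC libraries, without Akt-RACVEC 2 (adjusted p = 0.117) and without Akt-RACVEC 3 (0.101), in a fit of the 2 groups alone (0.132) and under the study's criterion as applied here. The study itself lists Sox17 among the genes raised in Akt-RACVECs. Sox18 differed by 0.97 ± 0.68 (95% interval -0.46 to 2.40, adjusted p = 0.517) and Sox7 by 0.49 ± 0.95 (-1.51 to 2.48, adjusted p = 0.901), and both overlapped between the groups. These intervals leave room for differences in either direction. Of all genes 0.221% were called higher and 0.0401% lower. Other transcripts differed between these groups too. The mesenchymal list summed to 6.04 to 407 FPKM in Akt-RACVECs against 2582 to 6376 in RACVECs, the endothelial list to 12722 to 21198 against 2018 to 3699, and the epithelial list, led by Krt19, to 0 to 38.7 against 131 to 1170. All 8 mesenchymal and all 10 endothelial markers had a mean of at least 1 FPKM in both groups, and 4 of the 6 epithelial markers, Epcam among them, were at 0 in both. Their part in the Sox17 difference was not tested. Erg, one of the transduced factors and itself an endothelial gene, had 3.91, 13.8 and 0.900 FPKM in RACVECs. In Akt-RACVECs it had 395, 1002 and 418 FPKM (adjusted p = 0.0363), while Etv2 and Fli1 were above 100 FPKM in all 6 libraries. By PCR, unlike these Erg values, the study reports that Akt changed no Ets factor transcript. Whether that PCR used these isolates is not given in the sources used here.

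Akt alone did not bring any SoxF factor past the test. Between Akt-MACs and MACs Sox7 differed by -0.12 ± 0.95 (95% interval -2.11 to 1.88), a difference whose sign turned when MAC 1, MAC 3 or Akt-MAC 1 was left out. Sox17 was above 0 in 1 Akt-MAC library and Sox18 in 1 MAC library. Akt-MACs had 2.59% of genes called higher and 0.214% lower. A contrast of the Akt effect in RACVECs with that in MACs gave an adjusted p of 0.177 for Sox17, 0.621 for Sox18 and 0.913 for Sox7. After adjustment the Akt effect was thus not shown to differ between cells with and without Ets factors for any of the 3. For Sox17 the limma estimate was 5.05 (95% interval 1.74 to 8.36, unadjusted p = 0.00488), a size that depends on the pseudocount. It was 1.34 (-0.68 to 3.37) for Sox18 and 0.60 (-2.22 to 3.43) for Sox7. For that contrast 0.00668% of genes were called positive and 0.0936% negative. Akt1 itself, which would also count reads of the transgene if its sequence maps to mouse Akt1, was at 551 to 692 FPKM in MACs, 848 to 1279 in Akt-MACs, 607 to 694 in RACVECs and 872 to 1280.5 in Akt-RACVECs. It did not follow the Akt label in all groups. Sox17-RACVECs, with no Akt transgene by their labels, had 884 to 1323 FPKM, Akt-LECs 798 to 1266, Akt-liver ECs 559 to 892 and LSECs 451 to 523.

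The Sox17 transgene was examined in Sox17-RACVECs. Its target was above 0 in all 3 libraries where RACVECs had 0, but the difference was not called, with an adjusted p of 0.239, and 0.419 without library 2. With a pseudocount of 0.1 in place of 1 the adjusted p was 0.0479 and Sox17 was called. Sox18 was higher by 1.41 ± 0.68 (95% interval -0.02 to 2.84, adjusted p = 0.757) and by 1.75 without library 2 (adjusted p = 0.793), and Sox7 by 0.45 ± 0.95 (adjusted p = 1) and by 0.21 without it. The libraries of both genes overlapped between the groups. In this comparison 0% of all genes were called higher and 0.00668% lower, with 198 genes higher and 506 lower at an unadjusted p below 0.05. Without library 2 the calls were 6 higher and 3 lower, and without RACVEC 2 they were 19 and 34.

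Against Akt-RACVECs, Sox17-RACVECs differed by -0.29 ± 1.12 for Sox17 (95% interval -2.63 to 2.06), -0.04 ± 0.95 for Sox7 (-2.03 to 1.96) and 0.44 ± 0.68 for Sox18 (-0.99 to 1.87). With 0% of genes called higher and 0% lower in limma, and 185 and 417 at an unadjusted p below 0.05, no gene separated these groups past the threshold. That count changed with the library whose Etv2 was 0: without it 111 genes were called higher and 229 lower. The SoxF differences were then -0.36 for Sox17, -0.28 for Sox7 and 0.78 for Sox18, none of them called.

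**Figure D2:**
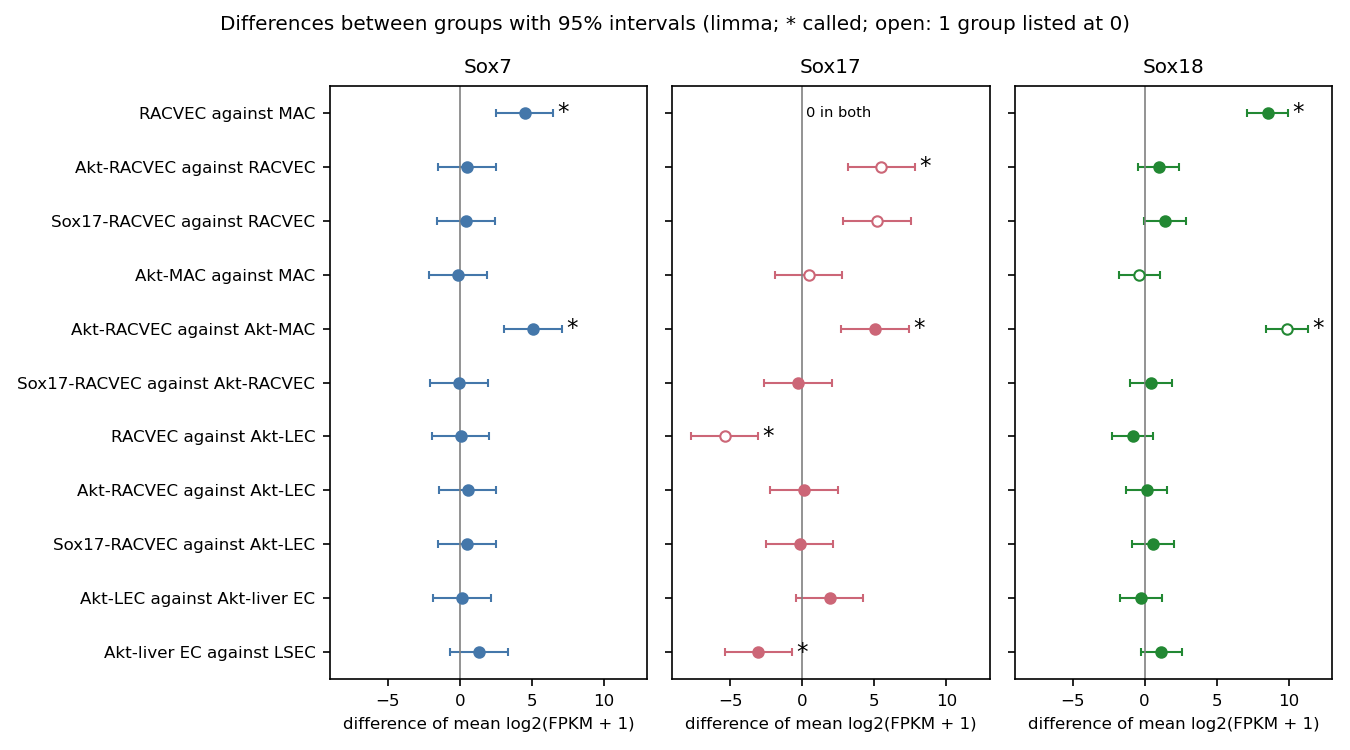
Difference of mean log2(FPKM + 1) between the first and the second named group with its 95% interval from limma, for each factor in 11 comparisons. A star marks a called difference and an open symbol a comparison in which 1 group was listed at 0 in all libraries, where the size depends on the pseudocount. Sox7 and Sox18 have stars in the comparisons of cells with and without Ets factors, and Sox17 in 4 comparisons.

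Cultured adult endothelium served as the reference for the converted cells. RACVECs differed from Akt-LECs in Sox17, listed at 0 against a mean of 43.6 FPKM (adjusted p = 0.0486), with no overlap of libraries. This call also lay close to the threshold and was lost whichever 1 of the 6 libraries was left out, with adjusted p between 0.0582 and 0.203, and under the study's criterion. RACVECs differed from Akt-LECs by 0.07 ± 0.95 for Sox7 and -0.83 ± 0.68 for Sox18, neither of them called, against 0.0267% of all genes called higher and 0.234% lower. Akt-RACVECs differed from Akt-LECs by 0.55 for Sox7, 0.12 for Sox17 and 0.14 for Sox18, with 95% intervals of -1.45 to 2.55, -2.22 to 2.46 and -1.29 to 1.57. None was called, and of all genes 0% were called higher (248 at an unadjusted p below 0.05) and 0.00668% lower. For Sox17-RACVECs against Akt-LECs the differences were 0.52, -0.17 and 0.58, and without library 2 they were 0.27, -0.25 and 0.92. Again none was called, beside 0% of all genes higher (209 at an unadjusted p below 0.05) and 0.0735% lower with all libraries. Without library 2, 33 of all genes were called higher and 77 lower.

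Adult ECs were compared by organ and by culture. Akt-LECs and Akt-liver ECs differed by 0.14 for Sox7, 1.90 ± 1.12 for Sox17 (95% interval -0.44 to 4.24) and -0.25 for Sox18. The Sox17 difference was 3.36 without Akt-liver EC 1 and 0.82 without Akt-liver EC 2. No difference was called with all libraries, as for nearly all genes (0% higher with 167 at an unadjusted p below 0.05, and 0.0134% lower). Akt-liver ECs had less Sox17 than LSECs (log2 difference -3.04 ± 1.12, adjusted p = 0.0418), although Akt-liver EC 1 overlapped with LSECs. Leaving out any 1 of the libraries but Akt-liver EC 1 ended the call, as did the study's criterion. Sox7 was higher in every Akt-liver EC library than in any LSEC library, by 1.33 ± 0.95, but did not pass (adjusted p = 0.302). Sox18 differed by 1.15 ± 0.68 (adjusted p = 0.205), and by 2.00 with a call without Akt-liver EC 1 (adjusted p = 0.0252). The background is wide here, with 14.1% of genes called higher and 12.9% lower. LSECs also held transcripts of other liver cells. The hepatocyte list summed to 2408 to 13880 FPKM in LSECs against 0 to 54.6 in Akt-liver ECs, the macrophage list to 11780 to 18925 against 0 to 1025, and the erythroid list to 12074 to 13901 against 0.750 to 1.07. All 8 hepatocyte genes, all 7 measured macrophage genes and 4 of 5 measured erythroid genes had a mean of at least 1 FPKM in LSECs. Their part in the SoxF differences was not tested.

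The make-up of the SoxF transcripts gives the same values as shares. In MACs and Akt-MACs the summed SoxF level was 0 to 35.2 FPKM, and Sox7 made up 86.5% to 100% of it in the libraries with any. In RACVECs the sum was 831 ± 547 FPKM, of which Sox18 held 57.3% to 80.5% and Sox7 the rest. Sox18 was also the main factor in Akt-RACVECs (61.5% to 80.7%), Sox17-RACVECs (62.5% to 85.8%, and 76.8% to 85.8% without library 2), Akt-LECs (62.7% to 89.4%), Akt-liver ECs (56.8% to 93.6%) and LSECs (70.9% to 75.8%). Sox17 was a minor share wherever it was present: 1.00% to 8.35% in Akt-RACVECs, 0.231% to 10.9% in Sox17-RACVECs with or without library 2, 1.7% to 5.53% in Akt-LECs, 0.0674% to 14.9% in Akt-liver ECs and 12.3% to 16.5% in LSECs. The directly sorted LSECs were the most uniform group, and the Sox18 to Sox7 ratio was 5.72, 5.63 and 6.37 in their libraries. In Akt-liver ECs that ratio was 2.01, 4.50 and 15.3.

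**Figure D3:**
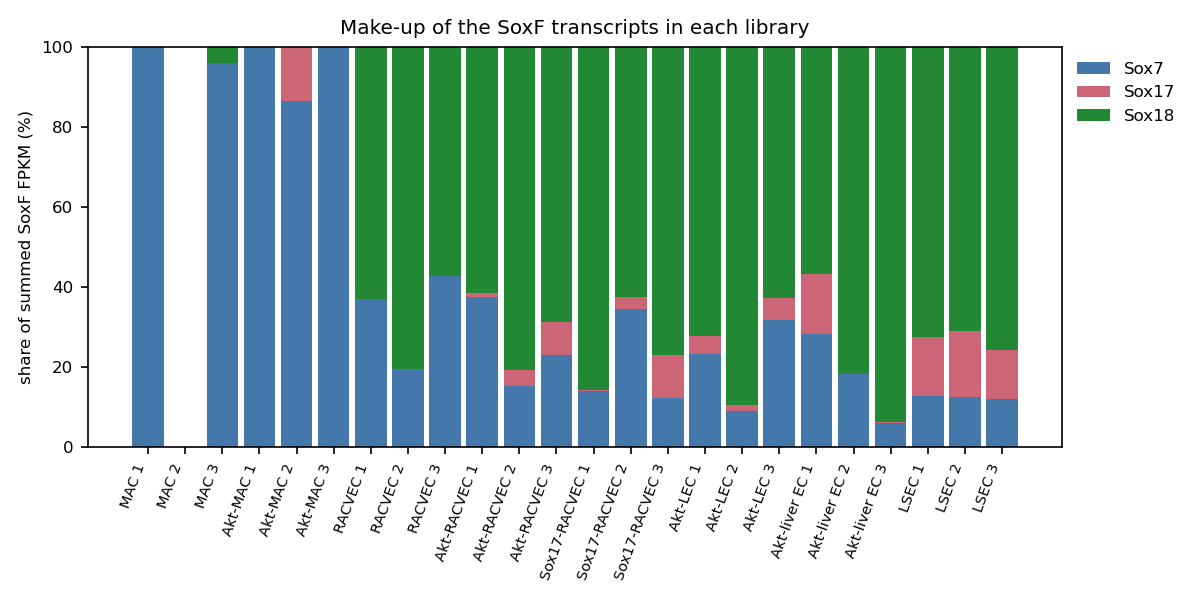
Share of Sox7, Sox17 and Sox18 in their summed FPKM, in percent, for each of the 24 libraries (MAC 2 has a sum of 0 and no bar). Sox7 makes up nearly all of it in MACs and Akt-MACs, Sox18 is the largest share in all other groups, and the Sox17 share is 12.3% to 16.5% in LSECs.

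The other Sox genes were compared to see whether the rest of the family moved with the SoxF factors. All 17 were in the files and 11 had a mean of at least 1 FPKM. From MACs to RACVECs 0 of the 11 were called in either direction by limma, with 0 higher and 4 lower at an unadjusted p below 0.05, and their median log2 difference was -1.82 where that of all genes was 0.00. Of all genes 1.36% were called higher there and 1.35% lower. Sox10, a neural crest factor, was at 246 ± 368 FPKM in MACs and 0.170 ± 0.294 in RACVECs (adjusted p = 0.111), and Sox2, a factor of pluripotent and neural cells, at 106 ± 112 and 8.35 ± 8.92. Sox9, a factor of cartilage and of many progenitor cells, was at 32 ± 14.4 and 7.57 ± 7.90 (adjusted p = 0.224). On the Akt background 0 were called higher and 5 of 11 lower in Akt-RACVECs, where 13.4% of all genes were called lower: Sox2, Sox8, Sox9, Sox10 and Sox21. Sox2, Sox8 and Sox21 were listed at 0 in all Akt-RACVEC libraries. Sox4, a factor of many progenitor cells, had means in cultured groups from 205 ± 18.3 FPKM in Akt-LECs to 422 ± 166 in Akt-liver ECs. It was at 18.6 ± 9.51 FPKM in LSECs, so that Akt-liver ECs had 4.45 ± 0.60 more on the log2 scale (adjusted p = 1.66e-05), which is opposite in sign to Sox17, in a comparison with 14.1% of all genes called higher. Sox13 had 11.1 ± 8.52 FPKM in RACVECs and 118 ± 64.3 in Akt-RACVECs, with no overlap of libraries, and did not pass (adjusted p = 0.119). Between Sox17-RACVECs and RACVECs without library 2, 0 of the 11 were called by limma and 0 were past an unadjusted p of 0.05, with a median of -0.44. Among all genes tested, 6 were called higher and 3 lower in that setting.

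**Figure D4:**
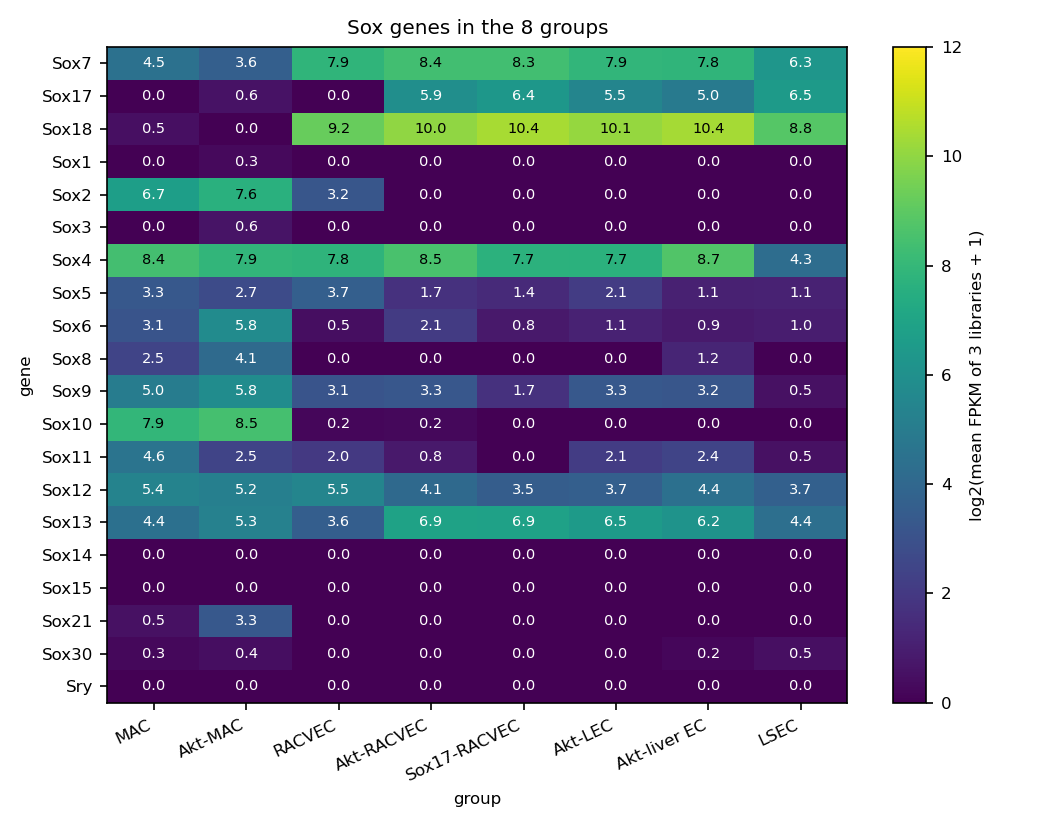
Mean level of the SoxF factors and 17 other Sox genes in each group, as log2(mean FPKM of 3 libraries + 1), by colour and number. Sox7 and Sox18 are high in all endothelial and converted groups, whereas Sox2, Sox8, Sox9 and Sox10 have their highest means in MACs and Akt-MACs.

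Genes that SoxF factors are known to bind or to regulate in endothelium made up a list of 14, of which 13 were tested and Mmp7 was not. From MACs to RACVECs 4 were called higher and 0 lower (0 lower also at an unadjusted p below 0.05), with a median log2 difference of 0.98, beside 1.36% of all genes called higher and 1.35% lower. The members called were Cdh5, Kdr (the main VEGF receptor), Notch4 and Robo4. Cdh5 rose from 1.32 ± 0.527 to 1427 ± 520 FPKM (log2 difference 9.22 ± 0.48, adjusted p = 1.92e-09), and Kdr from 5.54 ± 5.43 to 161 ± 56.8 FPKM (4.87 ± 0.62, adjusted p = 1.87e-04). Notch4 rose by 4.66 ± 1.04 (adjusted p = 0.0183). Robo4, a guidance receptor of quiescent vessels, was listed at 0 in all MAC libraries and had 97.0 ± 38.1 FPKM in RACVECs (adjusted p = 1.29e-06). Dll4, the arterial Notch ligand, had 17 ± 10.9 FPKM in RACVECs and 0.320 ± 0.554 in MACs and just missed the threshold (adjusted p = 0.0579).

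Neither Akt nor Sox17 on top of the Ets factors moved a gene of this list past the test, which few of all genes passed. Under its own criterion the study lists Vegfr2, which is Kdr, among the genes raised by each. For Akt-RACVECs against RACVECs 0 of 13 were called in either direction, 3 were higher and 1 lower at an unadjusted p below 0.05, and the median was 0.90. Of all genes 0.221% were called higher in that comparison and 0.0401% lower. Kdr had 1083 ± 100 FPKM in Akt-RACVECs against 161 ± 56.8 (adjusted p = 0.0550) and Flt1, a decoy receptor for VEGF, 263 ± 127 against 41.0 ± 5.94 (adjusted p = 0.233), both without overlap of libraries. Vcam1, an adhesion molecule of inflamed endothelium, had 35.4 ± 18.4 against 256 ± 101 FPKM (adjusted p = 0.253). For Sox17-RACVECs against RACVECs 0 of 13 were called, with 2 higher and 0 lower at an unadjusted p below 0.05 and a median of 0.38, and 0 were called without library 2 (1 higher and 0 lower unadjusted, median 0.46). Of all genes 0% were called higher and 0.00668% lower with all libraries. Robo4 had 317 ± 148 against 97.0 ± 38.1 FPKM and Kdr 541 ± 296 against 161 ± 56.8 FPKM, without overlap of libraries, and without library 2 the means were 383 ± 130 and 370 ± 5.75 FPKM (n = 2).

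Cldn5, a tight junction gene whose DNA SoxF factors bind in endothelium, split the groups unlike the SoxF factors. Its mean was 1084 ± 247 FPKM in Akt-LECs, 2503 ± 2065 in Akt-liver ECs and 2119 ± 183 in LSECs. It was at 23.9, 0 and 2.85 FPKM in RACVECs and at 0, 2.33 and 0 FPKM in Sox17-RACVECs. Akt-RACVECs had 4.75, 3543 and 2.40 FPKM, so 1 library held nearly all of the group's mean. Without Sox17-RACVEC 2, Cldn5 was called lower in Sox17-RACVECs than in Akt-LECs, where 33 of all genes were called higher and 77 lower. Prox1, the lymphatic factor that Sox18 induces in the embryo, was at 0 to 1.25 FPKM by group mean in all 3 converted groups, compared with 182 ± 225 for Akt-LECs, 475 ± 378 for Akt-liver ECs and 3.90 ± 1.5 for LSECs. Against LSECs the Akt-liver ECs had more Prox1 (log2 difference 5.82 ± 1.45, adjusted p = 0.00455), while Kdr (-2.08 ± 0.62, adjusted p = 0.0144) and Flt1 (-5.58 ± 1.04, adjusted p = 4.53e-04) were called lower, where 14.1% of all genes were called higher and 12.9% lower.

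On the Akt background 7 of the 13 rose from Akt-MACs to Akt-RACVECs and 0 fell (3 lower at an unadjusted p below 0.05): Cdh5, Dll4, Flt1, Kdr, Notch1, Notch4 and Robo4. Of all genes 6.15% were called higher there and 13.4% lower. The log2 differences of the 7 ran from 1.75 for Notch1 to 9.68 for Cdh5.

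**Figure D5:**
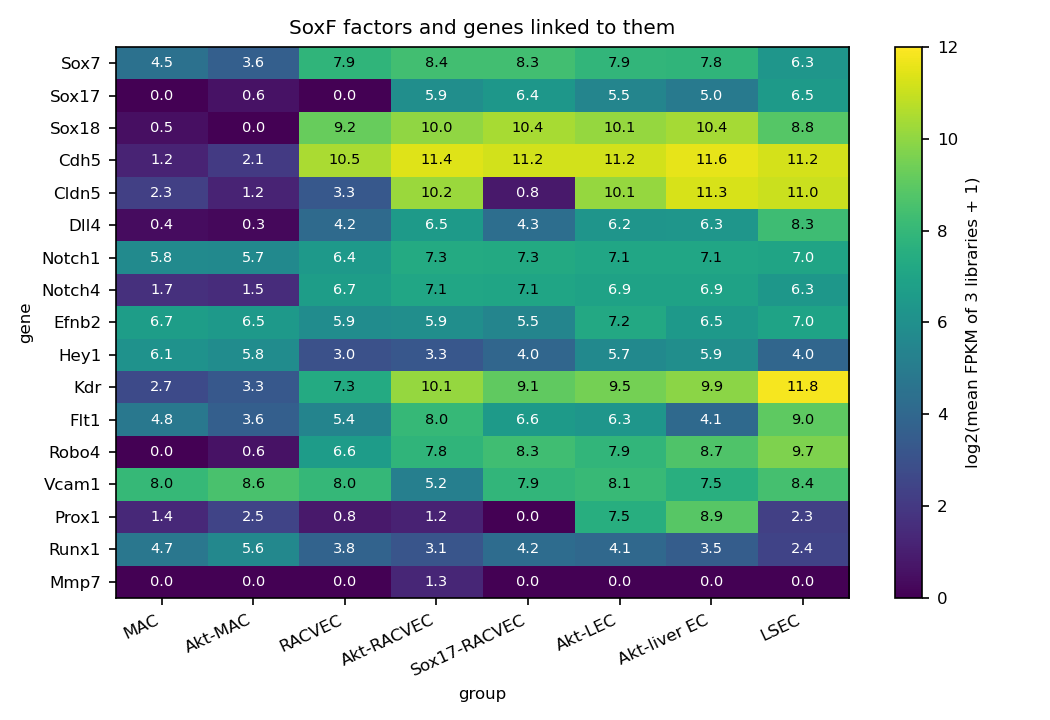
Mean level of the SoxF factors and of 14 genes linked to them in endothelium, as log2(mean FPKM of 3 libraries + 1), by colour and number in each group. Cdh5, Kdr, Notch4 and Robo4 have lower means in MACs and Akt-MACs than in every other group, Prox1 has its highest means in Akt-LECs and Akt-liver ECs, and the Cldn5 mean of Akt-RACVECs comes from 1 library.

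Proteins that bind to or act with SoxF factors were measured as a list of 8, of which 7 were tested and Pou5f1, listed at 0 in every library, was not. Among amniotic and converted cells 0 of the 7 were called by limma in each comparison, with at most 1 higher and 2 lower at an unadjusted p below 0.05. Of all genes at most 6.15% were called higher and 13.4% lower in these comparisons. From MACs to RACVECs 0 were higher and 2 lower at an unadjusted p below 0.05, Tcf7 and Lef1, which are nuclear partners of β-catenin. Mef2c, an endothelial and muscle factor known to act with Sox18, had 11.5 ± 7.09 FPKM in RACVECs and 109 ± 26.5 in Akt-RACVECs (adjusted p = 0.0615), with no overlap. In Sox17-RACVECs it was at 58.9 ± 84.1 FPKM, and without library 2 at 10.4 ± 3.99 (n = 2). It was then called lower in that group than in Akt-RACVECs and than in Akt-LECs. Of all genes, 111 were called higher and 229 lower against Akt-RACVECs in that setting, and 33 and 77 against Akt-LECs. Ctnnb1, the gene of β-catenin, had its lowest group mean, 1188 FPKM, in LSECs and rose above it in Akt-liver ECs (1.16 ± 0.33, adjusted p = 0.0110), as did 14.1% of all genes. For Sox17-RACVECs against RACVECs without library 2, limma called 0 of the 7, with 0 past an unadjusted p of 0.05, beside 6 of all genes tested called higher and 3 lower.

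Wnt targets, which SoxF factors are known to restrain, gave no call from MACs to RACVECs, from RACVECs to Akt-RACVECs or from RACVECs to Sox17-RACVECs, with 7 of 9 tested. Of all genes 1.36% were called higher and 1.35% lower, 0.221% and 0.0401%, and 0% and 0.00668%, in that order. At an unadjusted p below 0.05 the counts of Wnt targets were 1 higher and 2 lower, 0 higher and 1 lower, and 0 in both directions, in the same order. The last count was 2 higher and 0 lower without library 2, with 0 called by limma, and the median turned from -0.27 to 0.15. From MACs to RACVECs the estimates of 3 were positive and of 4 negative. Axin2, a feedback inhibitor of Wnt signalling, was at 3.45 ± 1.93 FPKM in MACs and at 0 in RACVECs and Sox17-RACVECs. In Akt-RACVECs it was at 1.89 ± 2.96 FPKM. Myc went the other way, from 154 ± 113 FPKM in MACs to 560 ± 112 in RACVECs. In Akt-liver ECs against LSECs Myc and Znrf3 were called higher and Nkd1 lower, which is 3 of 7 beside a background of 14.1% higher and 12.9% lower.

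Endoderm genes were included since Sox17 is one. Of 14 listed and 11 tested, 1 was called from MACs to RACVECs, Hhex, which is also an endothelial gene (1.65 ± 2.86 to 65.7 ± 26.7 FPKM, log2 difference 5.11 ± 0.86, adjusted p = 0.00242), against 1.36% of all genes higher. Foxa2, a pioneer factor of endoderm, was listed at 0 in all RACVEC, Akt-RACVEC and Sox17-RACVEC libraries. When RACVECs were compared with Akt-RACVECs and with Sox17-RACVECs, 0 were called (1 and 0 higher, 0 and 0 lower, at an unadjusted p below 0.05), and the counts against Sox17-RACVECs were also 0 without library 2. With all libraries, 0.221% of all genes were called higher and 0.0401% lower in Akt-RACVECs, and 0% and 0.00668% in Sox17-RACVECs.

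The genes most alike in pattern were ranked by Pearson correlation of log2(FPKM + 1) with each factor over the 21 libraries without the Sox17 transgene, among 15048 genes, as a description. These libraries fall into groups of low and high endothelial transcripts, so correlations are high for many genes. For Sox18 the closest were Ecscr (0.979), Cdh5 (0.978), She (0.976), Tie1 (0.971) and Egfl7 (0.963). Sox7 was closest to Ecscr (0.904), Slfn3 (0.899), Mark4 (0.892), Dock4 (0.874) and Sox18 itself (0.863). For Sox17 they were Zfp366 (0.931), Pik3c2b (0.895), Gimap1 (0.881), Tnfaip1 (0.880) and Gimap8 (0.875). Sox17 had correlations of 0.611 with Sox18 and 0.450 with Sox7, and Sox18 ranked 697 among the genes closest to it. The lists turn on the measure: with Spearman correlation 0 of the 5 genes stayed for Sox7, 2 for Sox17 and 2 for Sox18.

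Genes next to each SoxF locus were read for a regional difference. In the order of coordinates, Prpf6, 14176 bases before Sox18, had group means from 106 to 139 FPKM, and Tcea2, 8670 bases after it, from 12.6 to 55.3 FPKM. Pinx1, 23815 bases before Sox7, ranged from 31.2 to 70.3 FPKM and 4930578I06Rik on its other side was above 0 in 1 library. On the sides of Sox17, Mrpl15 ranged from 47.7 to 87.5 FPKM. Rp1 was at 0 except in Akt-RACVECs and Sox17-RACVECs. Its mean was 7.48 ± 12.8 FPKM in Akt-RACVECs, with libraries from 0 to 22.3. In Sox17-RACVECs it was 0.687 ± 1.19 FPKM, with libraries from 0 to 2.06. None of those tested was called by limma from MACs to RACVECs or from RACVECs to Akt-RACVECs. Against LSECs, Pinx1 was called higher for Akt-liver ECs by 1.17 ± 0.35 (adjusted p = 0.0153), with all libraries above, where Sox7 beside it was not called and 14.1% of all genes were.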

How the data were processed

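PolyA RNA of 24 libraries in 8 groups of 3 was sequenced as paired 51 bp reads. The authors mapped reads to mm9 with TopHat and deposited FPKM values from Cufflinks, with upper-quartile scaling and correction for sequence-specific bias, per RefSeq transcript and library. Versions and annotation release are not given in the sources used here. Of 27583 transcripts, 26930 had a current symbol, and FPKM were summed by symbol to 22282 genes. No pair of libraries held identical values.

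A pseudocount of 1 was added, and 14964 genes with a mean of at least 1 FPKM were fitted with limma 3.58.1 in R 4.3.3, 1 model of the 8 groups with a mean-variance trend and Benjamini-Hochberg adjustment. The script was tested on simulated data. Contrasts that share a group share its libraries. Exact permutation tests compared neighbours in the order of levels. Statements that libraries did not overlap carry no share over all genes, so they are descriptions only. The members and lists were chosen with earlier results of these data known. Named genes were the SoxF factors, members of the lists, the transduced genes, the 5 genes most alike to each factor and the nearest genes on each side. Alternatives were other pseudocounts and filters, the groups compared alone, a replicate block, libraries shifted by their median, transcript rows kept apart, the study's criterion and leaving out each library. Positions came from the mm9 GENCODE annotation.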

Additional observations from a re-analysis of the deposited data

How the results depend on the processing

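Of 564 values under alternatives, 477 were judged the same as the 56 results. For differences between groups this means the same direction and side of the threshold. The 56 results also hold counts of listed genes called and lists of genes most alike, which were judged by the size of the count. The cause of the other changes was not tested. In fits of the groups compared alone, the adjusted p was 0.263 for Sox7 in RACVECs against MACs (difference 4.50), 0.132 for Sox17 in Akt-RACVECs against RACVECs, 0.0704 for Sox17 in RACVECs against Akt-LECs and 0.135 for Sox17 in Akt-liver ECs against LSECs (-3.04). With a replicate block in those fits, calls were lost for Sox7 in RACVECs against MACs (4.50, adjusted p = 0.349) and Akt-RACVECs against Akt-MACs (5.10, 0.115), for Sox17 in Akt-RACVECs against RACVECs (0.298) and Akt-MACs (5.05, 0.0984), RACVECs against Akt-LECs (0.446) and Akt-liver ECs against LSECs (-3.04, 0.175), and for Sox18 in RACVECs against MACs (8.54, 0.262) and Akt-RACVECs against Akt-MACs (0.0810). Same-numbered libraries did not deviate together in all 3 pairs of any comparison (correlations -0.488 to 0.571), so the numbers were not taken as pairs. Under the study's criterion, an unadjusted p from a test on FPKM with unequal variances, p was 0.129 for Sox17 in Akt-RACVECs against RACVECs, 0.131 against Akt-MACs (5.32), 0.0623 in RACVECs against Akt-LECs and 0.129 in Akt-liver ECs against LSECs (-1.59), and for Sox18 0.174 in RACVECs against MACs (8.75) and 0.0890 in Akt-RACVECs against Akt-MACs. Uncalled differences that changed sign there were Sox7 in RACVECs against Akt-LECs (-0.032), Sox17 in Sox17-RACVECs against Akt-RACVECs (0.46) and Akt-LECs (0.89), and Sox18 in Akt-RACVECs against Akt-LECs (-0.10).

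With a pseudocount of 0.1, Sox7 changed sign in Akt-MACs against MACs (0.80) and in the contrast of Akt effects (-0.31), Sox17 in Sox17-RACVECs against RACVECs was called (0.0479), and Sox17 in Akt-liver ECs against LSECs was not (-3.32, 0.0658). With a pseudocount of 10, the adjusted p of Sox17 was 0.124 in Akt-RACVECs against RACVECs, 0.232 in RACVECs against Akt-LECs and 0.0569 in Akt-liver ECs against LSECs (-1.98), and its difference in Sox17-RACVECs against Akt-LECs was 0.085. Without a filter on low values, Sox17 had 0.0508 in Akt-RACVECs and 0.0645 in Akt-LECs, each against RACVECs, and 0.0517 in the latter with transcript rows kept apart. Shifting libraries by their median turned Sox7 in Sox17-RACVECs against Akt-RACVECs to 0.025.

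Leaving out 1 library gave, for Sox7, 2.83 to 5.42 in RACVECs against MACs, -1.79 to 0.80 in Akt-MACs against MACs, -0.29 to 0.21 in Sox17-RACVECs against Akt-RACVECs, -0.32 to 0.44 in RACVECs against Akt-LECs, -0.23 to 0.66 in Akt-LECs against Akt-liver ECs and -0.32 to 2.27 in the contrast of Akt effects. For Sox17 the adjusted p was 0.0350 to 0.168 in Akt-RACVECs against RACVECs and 0.0582 to 0.203 in RACVECs against Akt-LECs, and the difference was -1.51 to 1.01 in Sox17-RACVECs against Akt-RACVECs, -0.34 to 1.01 in Akt-RACVECs and -1.39 to 1.13 in Sox17-RACVECs against Akt-LECs, and -4.50 to -1.96 in Akt-liver ECs against LSECs. For Sox18 it was -0.42 to 0.82 in Akt-RACVECs against Akt-LECs, -1.09 to 0.31 in Akt-LECs against Akt-liver ECs and 0.72 to 2.00 in Akt-liver ECs against LSECs. Leaving out Sox17-RACVEC 2 was a setting chosen after its Etv2 value was seen. In it 1 linked gene (Cldn5) and 1 partner (Mef2c) were called lower against Akt-LECs. Against Akt-RACVECs 1 partner (Mef2c) was called lower, and 0 of these were called with that library. Of all genes, 33 were called higher and 77 lower against Akt-LECs in that setting, and 111 and 229 against Akt-RACVECs. Depth is unknown, so that a low level cannot be told from a missed transcript, and 3 libraries a group limit all tests.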
